A study of Mus musculus with 162 samples.

Results

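The genes of the urea cycle were followed across 9 organs of fasting mice. The members described are 7 genes of the cycle and its immediate supply, Cps1, Otc, Ass1, Asl, Nags, Slc25a15 and Gls2, each found by its symbol among the 53686 rows of the count table. They were chosen by name and not by a measured value. The organs were the olfactory bulb (OB), the telencephalon and diencephalon together (BRN), cerebellum (CBL), the mesencephalon, pons and myelencephalon together (BST), the liver (LIV) and the stomach (STM), and 3 fat depots, the brown one between the shoulder blades (iBAT) and 2 white ones, perigonadal (pgWAT) and posterior subcutaneous (psWAT). Each organ came from the same 18 adult male C57BL/6J mice, 8 to 9 weeks old, with 3 mice in each of 6 groups, fed (0 h) or fasted for 2, 8, 12, 18 or 22 h. All mice were killed at the same time of day, after the start of the dark phase of a 12 h:12 h light and dark cycle. The 0 h mice had food throughout, so longer fasts began at earlier clock times and fasting duration cannot be told apart from the time of day at which food was removed.

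The urea cycle turns ammonia, which is toxic, into urea that the kidney can excrete, and in mammals the complete cycle runs mainly in the hepatocytes around the portal vein. CPS1 joins ammonia and bicarbonate in the mitochondrion and needs N-acetylglutamate, which NAGS makes. OTC then forms citrulline from carbamoyl phosphate and ornithine, and SLC25A15 (ORC1) exchanges ornithine and citrulline across the inner mitochondrial membrane. In the cytosol ASS1 joins citrulline to aspartate and ASL releases arginine and fumarate, after which arginine yields urea and ornithine. GLS2 is the liver form of glutaminase, which frees ammonia from glutamine beside CPS1. Glucagon, glucocorticoids and dietary protein are known regulators of these genes.

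Levels are given as counts per 1000000 counts of the library (CPM). The 18 LIV libraries held 6959200 to 12451777 counts each, and the libraries retained here over all organs, after leaving out the 5 that the study excluded, held 3045845 to 27801717. A count of 3 corresponded to 0.241 to 0.431 CPM in LIV and to 0.108 to 0.985 CPM over all retained libraries, and values at or below that are given as at the floor. The LIV libraries matched their label, since the summed level of 8 hepatocyte markers (among them Alb, Apoa1 and Ttr) was 84289 to 120020 CPM. A bulk library does not separate fewer cells of a type from less RNA per cell.

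Sequence shared with another locus bears on how the values of Ass1 are read. Ass1 has a processed pseudogene on another chromosome, Gm5424 (chr10:62071123-62072362, plus strand, GRCm38), whose 1240 bases matched the Ass1 mRNA at 1234 positions (99.5%) with no gap. Of the 1091 windows of 150 bases along it, the read length used, 454 (41.6%) were identical to Ass1 and 1062 (97.3%) differed at no more than 2 bases, the number of mismatches that the alignment allowed. The following 60 bases, from base 572 to 631 of the Ass1 transcript in its coding part, are a stretch that tells the 2 loci apart, with the differing bases in capitals.
Ass1: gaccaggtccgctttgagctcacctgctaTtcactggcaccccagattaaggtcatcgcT
Gm5424: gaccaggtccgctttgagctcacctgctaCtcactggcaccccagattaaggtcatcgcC
For Slc25a15 the most similar copy, Slc25a2, matched at 75.9% of aligned bases.

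RefSeq promoter windows (GRCm38.p6) were at hand for 4 of the 7 members: Otc, Nags, Ass1 and Slc25a15, the last with 2 start sites. The 250 bases before the start of Otc (chrX:10252055-10252304, plus strand) and of Nags (chr11:102145263-102145512, plus strand) are shown because the transcripts of both genes passed a test in LIV below, and because these 2 windows held the matches found to a set of 7 short motifs. Capitals mark matches to TTNNGNAA, a pattern of the C/EBP family, on either strand.
Otc: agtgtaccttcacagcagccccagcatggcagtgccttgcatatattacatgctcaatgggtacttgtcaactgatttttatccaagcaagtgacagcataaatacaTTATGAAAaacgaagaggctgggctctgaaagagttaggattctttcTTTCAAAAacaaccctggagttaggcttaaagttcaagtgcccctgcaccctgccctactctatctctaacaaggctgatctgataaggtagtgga
Nags: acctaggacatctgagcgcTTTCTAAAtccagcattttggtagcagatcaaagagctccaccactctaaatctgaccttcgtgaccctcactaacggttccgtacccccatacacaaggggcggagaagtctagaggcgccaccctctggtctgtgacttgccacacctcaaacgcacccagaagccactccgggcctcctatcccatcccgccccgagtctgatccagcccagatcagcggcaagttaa
Otc held 2 matches, at -143 on its own strand and at -96 on the opposite one, and Nags held 1, at -231 on the opposite strand. The same pattern was present in 36.8% of 32851 mouse promoter windows of the same length. The other patterns searched on both strands (TGACGTCA and its shorter form TGACG for the cAMP response element, TGTTCT for the glucocorticoid receptor, TGTTTAC for FOXO and FOXA, CAAAGTCCA for HNF4, and CCAAT) had no match in the 5 windows, and were present in 1.55%, 17.8%, 16.1%, 3.17%, 0.384% and 33.8% of all windows. A match to letters says nothing about binding in these livers.

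To place the members in LIV, their levels were compared over all 18 libraries. Cps1 (chr1:67123026-67231259, plus strand, GRCm38) had the highest level, with a lowest, median and highest library of 995, 1330 and 2023 CPM, and Asl (chr5:130011258-130029247, minus strand) stood at 935, 1198 and 1606 CPM. Their ranges overlapped, so these 2 enzymes were not separated by their counts. Otc (chrX:10252305-10321024, plus strand) followed at 406, 552 and 726 CPM, and Gls2 (chr10:128194457-128210004, plus strand) at 268, 380 and 504 CPM. Slc25a15 (chr8:22375551-22398597, minus strand) ran from 177 to 310 CPM with a median of 247, and Nags (chr11:102145513-102149477, plus strand), which supplies the activator of CPS1 and not a substrate, from 58.4 to 86.5 CPM with a median of 76.9. Ass1 (chr2:31470207-31520672, plus strand) was listed at 72.5 to 244 CPM with a median of 131.7, and that value is uncertain because of the pseudogene described above. The 7 genes together took 3138 to 5176 CPM, 0.314 to 0.518% of the counts of a LIV library.

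Divided by the length of each gene's exons, the order changed little. Asl had a median of 248 CPM per kb and Cps1 of 239, with overlapping ranges, followed by Otc at 130 and Gls2 at 109.5, whose ranges also overlapped. Ass1 was at 54.6, Slc25a15 at 43.8 and Nags at 27.1 CPM per kb. Gm5424 was at 1349 CPM per kb, above every member with no overlap.

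**Figure D1:**
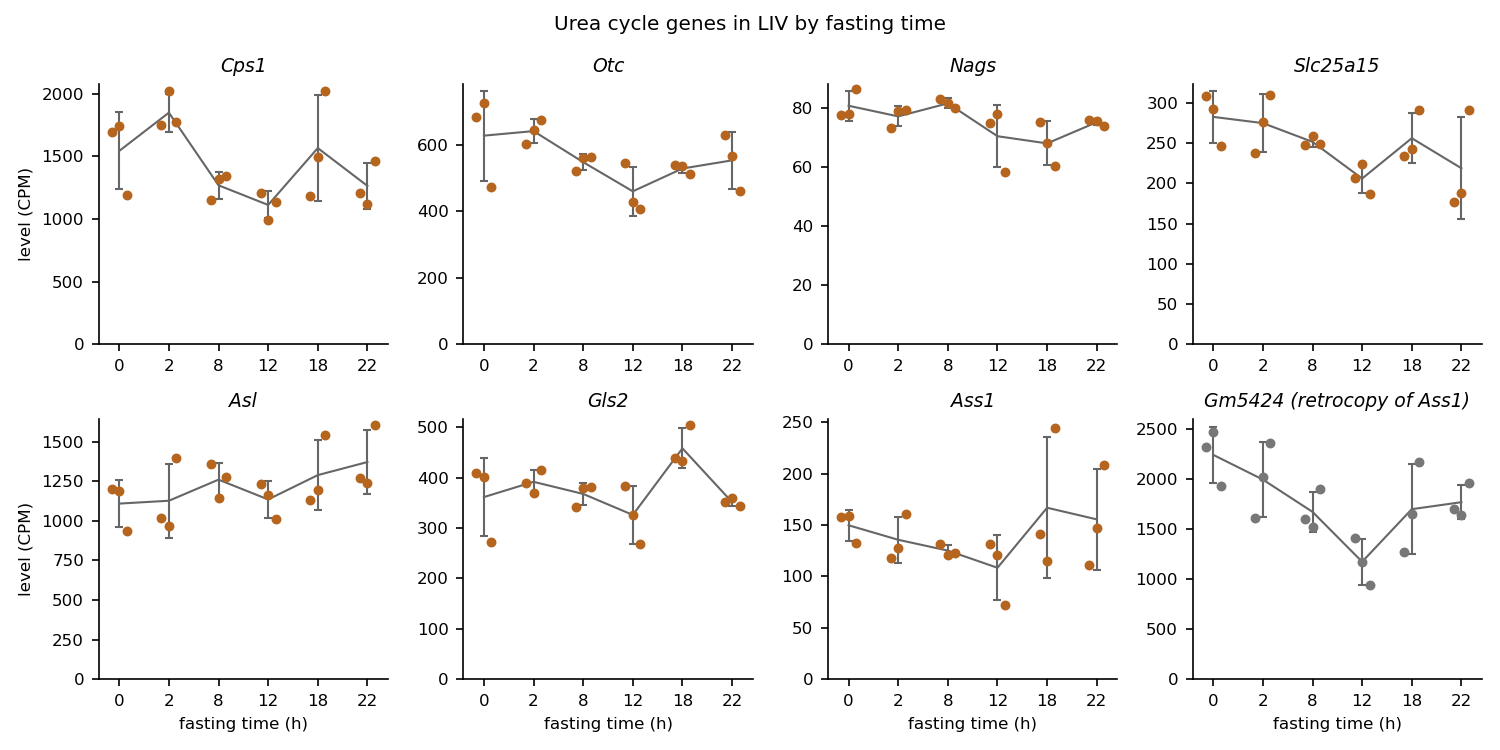
Level of 7 urea cycle genes and of Gm5424 in LIV in CPM (vertical axes, from 0) at each fasting time in h (horizontal axes, evenly spaced steps); each point is 1 of 18 mice, the line joins the means and bars are ± SD (n = 3). The 12 h means are the lowest for Cps1, Otc, Slc25a15 and Gm5424, while Asl shows its highest mean, 1372 CPM, at 22 h.

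To examine how the members moved during the fast, LIV libraries were compared in 3 pairs of neighbouring times, 0 and 2 h, 8 and 12 h, and 18 and 22 h, with 6 mice each. Between the first and the second pair the 2 mitochondrial enzymes that open the cycle and the ornithine carrier were lower. Cps1 held 1696, 1747 and 1189 CPM at 0 h and 1749, 2023 and 1776 CPM at 2 h, against 1148, 1316 and 1344 CPM at 8 h and 1206, 995 and 1136 CPM at 12 h. All 6 later libraries lay below the median of the 6 earlier ones and 3 of them below the lowest, LIV_0h replicate 3, so the ranges overlapped through that library. The log2 fold change (log2FC) was -0.56 (SE 0.13, n = 6 against 6, edgeR quasi-likelihood test with Benjamini-Hochberg adjustment over 14023 genes, adjusted p = 0.00779), and the mean level fell by 29.8%. Otc held 683, 726 and 474 CPM at 0 h, 604, 645 and 675 CPM at 2 h, 520, 559 and 563 CPM at 8 h and 544, 429 and 406 CPM at 12 h. Its 6 later libraries were again all below the earlier median, with 2 below the lowest earlier library, and the log2FC was -0.40 (SE 0.11, edgeR adjusted p = 0.0161). Slc25a15 held 309, 292 and 246 CPM at 0 h, 237, 277 and 310 CPM at 2 h, 247, 258 and 249 CPM at 8 h and 207, 224 and 186.9 CPM at 12 h, where all 3 libraries were below every earlier one. Its log2FC was -0.35 (SE 0.11, edgeR adjusted p = 0.0336).

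The other 4 members tested did not pass this comparison. Asl had a log2FC of 0.04 (SE 0.11, edgeR adjusted p = 0.843), and Gls2 and Nags had -0.18 (SE 0.10, adjusted p = 0.212) and -0.12 (SE 0.07, adjusted p = 0.249). The row of Ass1 had -0.36 (SE 0.18, adjusted p = 0.171). Thus 3 of the 7 members tested were lower at 8 and 12 h and none higher, beside 8.94% of all genes tested that were lower. The median log2FC of the 7 members was -0.35, against 0.01 for all 14023 genes. No member reached an absolute log2FC above 1, the further bound that the study used for a differentially expressed gene (DEG), beside 1.27% of all genes that did.

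At 18 and 22 h against the same 0 and 2 h libraries, Nags was the member that passed. It held 77.6, 78.1 and 86.5 CPM at 0 h, 73.2, 79.0 and 79.2 CPM at 2 h, 75.4, 68.1 and 60.5 CPM at 18 h, and 76.1, 75.5 and 73.9 CPM at 22 h. All 6 late libraries lay below the early median and 2 below the lowest early library, and the log2FC was -0.23 (SE 0.07, edgeR adjusted p = 0.0377). That is 1 of 7 members, beside 7.20% of all genes that were lower and 15.0% that passed in either direction. Nags shares 443 of its 2838 exon bases with Gm11586, an antisense gene. The strand setting of the counting is not given in the sources used here, so how reads on the shared bases were counted is not known. Otc (log2FC -0.31, SE 0.11, adjusted p = 0.0545), Slc25a15 (-0.32, SE 0.11, adjusted p = 0.0558) and Cps1 (-0.35, SE 0.13, adjusted p = 0.0800) were below their early means without passing. Gls2 (0.01, SE 0.10) and Ass1 (0.09, SE 0.18) stood near their early means, and Asl was at 0.17 (SE 0.11, adjusted p = 0.330). Between 8 and 12 h and 18 and 22 h no member passed (0 of 7, beside 2.70% of all genes), with 1 member, Ass1, at an unadjusted p under 0.05 and 0 by DESeq2.

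When each time was set against 0 h, the calls fell at 12 and 18 h. Otc (-0.48, SE 0.15, edgeR adjusted p = 0.0430) and Slc25a15 (-0.49, SE 0.16, edgeR adjusted p = 0.0468) were lower at 12 h, 2 of 7 members beside 6.18% of all genes lower. Between the same 0 and 12 h libraries the enterocyte (154.8 to 169.7 and 126.3 to 138.8 CPM) and acinar markers (26.3 to 28.1 and 18.3 to 22.5 CPM) were also lower without overlap, and the keratinocyte and adipocyte markers higher, all at or below 12.4 CPM, while the hepatocyte markers overlapped. In these libraries 1 to 3 of the 7 acinar and 2 or 3 of the 8 enterocyte markers exceeded 3 counts. Those 2 sums therefore rest on few genes of each list. The part of other cells was not tested. Nags was lower at 18 h (-0.37, SE 0.10, edgeR adjusted p = 0.0238), 1 of 7 beside 4.82%. Between those libraries the keratinocyte markers were higher (2.23 to 2.86 and 4.78 to 5.54 CPM) and the cholangiocyte markers lower (56.3 to 83.7 and 39.2 to 53.8 CPM) without overlap. Of the keratinocyte list, 1 or 2 markers exceeded 3 counts in them. No member passed at 2, 8 or 22 h (0, 0 and 1 of 7 members at an unadjusted p under 0.05, and 0 by DESeq2), where 0.143%, 0.471% and 4.15% of all genes passed. In the joint test that all 6 time means are equal, Cps1 passed (edgeR adjusted p = 0.0423), 1 of 7 members beside 16.0% of all genes. Its highest mean was 1850 ± 150.7 CPM (SD, n = 3) at 2 h and its lowest 1112 ± 107 CPM at 12 h, a 1.66-fold span. The other spans between highest and lowest time mean were 1.39-fold for Otc, 1.54-fold for Ass1, 1.41-fold for Gls2, 1.37-fold for Slc25a15, 1.24-fold for Asl and 1.20-fold for Nags. For 5 of the 7 members the lowest mean was at 12 h, the exceptions being Asl (0 h) and Nags (18 h). The comparisons share the 0 h libraries and are therefore not independent of each other.

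**Figure D2:**
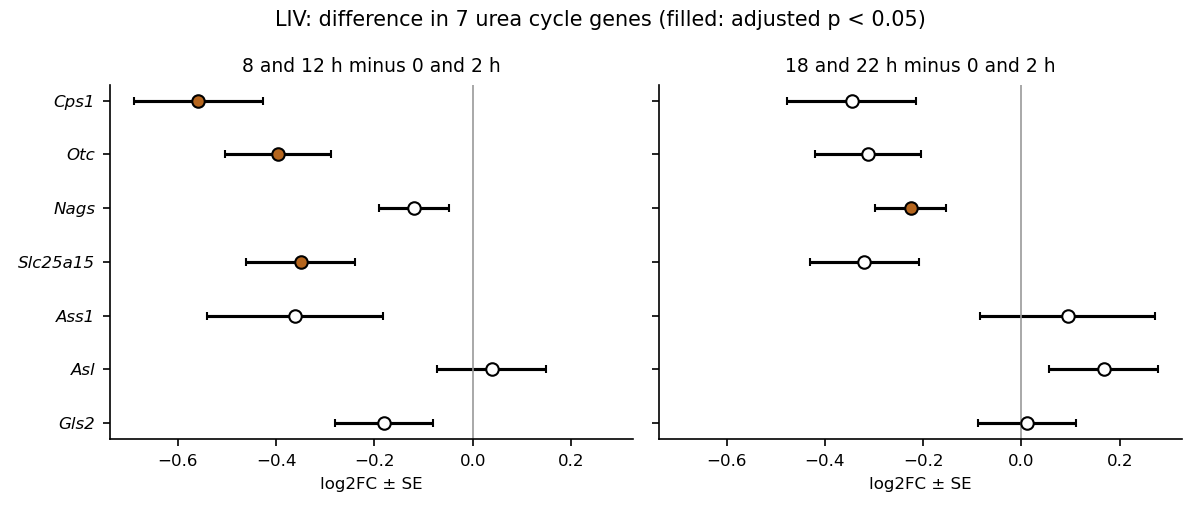
Log2 fold change (horizontal axes) of 7 urea cycle genes (rows) in LIV at 8 and 12 h (left) and at 18 and 22 h (right) against the same 0 and 2 h libraries, with ± SE bars from edgeR and 6 mice on each side; filled points passed an adjusted p of 0.05. Cps1, Otc and Slc25a15 are filled on the left and Nags on the right.

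Single livers weighed on these calls. LIV_12h replicate 3 was below the median of all 18 libraries in 7 of 7 members and the lowest of all in 4. LIV_12h replicate 2 was below that median in 6, and 5 other libraries in 5. The TMM factor of LIV_12h replicate 3 was 0.856, so that its CPM values understate its levels relative to the other libraries in the fit. Leaving out each LIV library in turn, Cps1 stayed past the test at 8 and 12 h in 18 of 18 fits (log2FC -0.64 to -0.50, edgeR adjusted p = 0.00231 to 0.0276). Otc stayed past it in 17, and was lost without LIV_0h replicate 2 (edgeR adjusted p = 0.0574). Slc25a15 stayed past it in 9, with an adjusted p up to 0.0910 without LIV_2h replicate 3, and Nags at 18 and 22 h in 9, with an adjusted p up to 0.0963 without LIV_2h replicate 2. The single-time calls at 12 h held in 11 of 18 fits for Otc (edgeR adjusted p up to 0.218, without LIV_0h replicate 2) and in 8 of 18 for Slc25a15 (up to 0.168, without LIV_0h replicate 1), and that of Nags at 18 h in 15 of 18 (up to 0.0869, without LIV_18h replicate 3). With a replicate block the call of Otc at 12 h against 0 h was lost (edgeR adjusted p = 0.0615). So were the calls of Nags at 18 and 22 h and of Cps1 in the joint test. With 1 library left out, the joint test of Cps1 passed in 6 of 18 fits, with an edgeR adjusted p of 0.125 without LIV_2h replicate 2. The lane field of the library names followed the fasting time in LIV, with 0 h, 2 h and the first 2 replicates of 8 h in L001 and the rest in L002. With lane as a covariate 0 members passed any of these tests, and the log2FC of Cps1 at 8 and 12 h was -0.69 (edgeR adjusted p = 0.0710), so lane and fasting time cannot be told apart for the later times.

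The counts of Ass1 rest on how reads were divided between 2 loci. Gm5424 held 942 to 2463 CPM in LIV with a median of 1673, and the row of Ass1 held 5.95 to 10.1% of the sum of both, with a median of 7.01%. The row of Gm5424 passed the joint test (edgeR adjusted p = 0.0143) and was lower at 8 and 12 h than at 0 and 2 h, with a log2FC of -0.66 (SE 0.13, edgeR adjusted p = 0.00296). It held 2319, 2463 and 1929 CPM at 0 h and 1406, 1164 and 942 CPM at 12 h, which do not overlap. With both rows summed, an alternative chosen after seeing the data, the sum went from 2387 ± 291 CPM at 0 h to 1279 ± 262 CPM at 12 h (SD, n = 3), and the log2FC at 8 and 12 h against 0 and 2 h was -0.64 (edgeR adjusted p = 0.00362). With the sum in place of the Ass1 row, 4 of 7 members were lower at 8 and 12 h. At 18 and 22 h the Ass1 row had a log2FC of 0.09 and the sum -0.33 (edgeR adjusted p = 0.0816), so that the sign of the late value depends on the row. Whether the reads of Gm5424 came from Ass1 transcripts was not tested.

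The genes around the cycle were grouped in lists by role, and of all genes tested 8.94% were lower and 9.04% higher at 8 and 12 h than at 0 and 2 h. Of 8 tested genes of mitochondrial exchange and bicarbonate supply, 3 were lower at 8 and 12 h than at 0 and 2 h and none higher. Mdh1 and Mdh2, the cytosolic and mitochondrial malate dehydrogenases that return the carbon of fumarate towards oxaloacetate, had a log2FC of -0.68 (SE 0.11, edgeR adjusted p = 0.00124) and -0.51 (SE 0.12, edgeR adjusted p = 0.00698), and the third was Car5a, the mitochondrial carbonic anhydrase. Mdh1 went from 513 ± 59.7 CPM at 0 h to 245 ± 45.3 CPM at 12 h (SD, n = 3). Of 14 tested genes of ammonia and nitrogen metabolism, 4 were lower and none higher. They were Oat, ornithine aminotransferase (-0.68, SE 0.13, edgeR adjusted p = 0.00233), Glul, glutamine synthetase, which uses ammonia (-0.31, SE 0.10, edgeR adjusted p = 0.0348), Glud1, glutamate dehydrogenase, and Slc38a4, an amino acid transporter. Of 12 other users of arginine and ornithine, 1 was lower (Odc1, ornithine decarboxylase) and 1 higher (Gamt, of creatine synthesis).

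The regulators of the cycle that passed a comparison with 0 and 2 h were higher. At 8 and 12 h, 3 of 15 tested regulators were higher and none lower, beside 9.04% of all genes higher. The list as a whole had a median log2FC of 0.06, with 7 of 15 below 0. They were Gcgr, the glucagon receptor (0.60, SE 0.12, edgeR adjusted p = 0.00269), Crtc2, a coactivator of CREB (0.34, SE 0.09, edgeR adjusted p = 0.0148), and Foxa2, a hepatocyte transcription factor (0.82, SE 0.24, edgeR adjusted p = 0.0329). Gcgr rose from 444 ± 74.4 CPM at 0 h to 706 ± 105.2 CPM at 12 h and stood at 502.5 ± 26.1 CPM at 22 h (SD, n = 3). Crtc2 was also the regulator that passed at 18 and 22 h (0.49, SE 0.09, edgeR adjusted p = 0.0017), 1 of 15 beside 7.76% of all genes higher. Gcgr, Crtc2 and Ppargc1a, a coactivator of gluconeogenic genes (edgeR adjusted p = 0.0323), passed the joint test, 3 of 15 beside 16.0% of all genes. Of 12 genes known to respond to glucagon, cAMP or glucocorticoids, none passed by edgeR in either comparison with 0 and 2 h, and Crem and Pdk4 passed the joint test, 2 of 12 beside 16.0% of all genes. Their median log2FC at 8 and 12 h was -0.33, with 9 of 12 below 0. Sds, serine dehydratase, was higher at 18 and 22 h than at 8 and 12 h (1.19, SE 0.29, edgeR adjusted p = 0.0466). Of 8 periportal genes, 3 were lower at 8 and 12 h and none higher (Aldh1b1, Ctsc and Cyp2f2), and of 9 pericentral genes 4 were lower and none higher (Cyp1a2, Cyp2e1, Glul and Oat), beside 8.94% of all genes lower. Their median log2FC was -0.42 and -0.31, beside -0.35 for the members and 0.01 for all genes tested. From 8 and 12 h to 18 and 22 h, 2 of the 8 periportal genes were higher (Hsd17b13 and Sds) and none lower, with a median log2FC of 0.43 and none below 0, beside 1.11% of all genes higher and 1.58% lower. Sds is in both the responsive and the periportal list. Of the 9 pericentral genes 0 passed that comparison, with a median log2FC of -0.04 and 5 below 0. Of 3 tested genes of urea transport and deacylation none passed any of the 3 pooled comparisons.

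The members were also compared by their pattern over the 18 LIV libraries, using log2(CPM + 1). These are descriptions over libraries that share 6 fasting times, with no test. Among 14023 genes, the gene most correlated with Otc was Cat, catalase (Pearson r = 0.945), with Ass1 it was Fmo5 (0.951), with Gls2 it was Uox, urate oxidase (0.911), with Asl it was Gm15889 (0.909), with Nags it was Gna11 (0.894) and with Slc25a15 it was Dusp16 (0.881). The 5 genes closest to Cps1 were Gm6395 (0.896), Ctnnb1 (0.877), Ddx3x (0.876), Lrrc58 (0.864) and Pcna-ps2 (0.860). None of these was another member. Over the 21 pairs of members the median r was 0.374, and 18 pairs were positive. The closest pair was Cps1 and Slc25a15 (0.727) and the most opposed was Cps1 and Nags (-0.161). After the time means were removed the median r was 0.401, and Cps1 and Nags stood at -0.59.

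To examine where else the genes were expressed, LIV was compared with the other 8 organs. For all 7 members every LIV library was above every library of every other organ, given as a description, since Otc and Nags passed the filter on low counts in no single organ other than LIV. Asl and Slc25a15 passed it in each organ, and both were higher in LIV in each of the 8 comparisons (edgeR fit of all retained libraries, highest adjusted p = 7.59e-67 for Slc25a15 and 1.17e-94 for Asl). Of all genes, those higher in LIV made up 33.5% against STM, 31.9% against iBAT, 31.5% against pgWAT, 28% against psWAT, 38.1% against OB, 38.7% against BRN, 39.1% against CBL and 38.7% against BST. Cps1 was at 0 counts in 48.9% of the libraries outside LIV, Otc in 84.9% and Nags in 79.1%, so the entry enzymes and the activator were at or near the floor in most libraries outside LIV. Otc had no count in any of the 18 CBL or 16 BRN libraries. Set against 3 counts in the shallowest library of each organ, its median LIV level was at least 1193-fold higher than in CBL and at least 560.2-fold higher than in BRN. The steps that other cells also use were present everywhere. Asl ranged from a median of 11.4 CPM in OB to 41.9 CPM in pgWAT, 105.4-fold and 28.6-fold below LIV, and Slc25a15 from 15.6 CPM in BRN to 29.1 CPM in iBAT, 15.9-fold and 8.49-fold below LIV. For both genes each organ's range overlapped that of the next organ in order outside LIV.

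Gls2 and Cps1 were also counted in brain tissue. Gls2, the liver form of glutaminase, was found in the 4 brain dissections, in the order BST (51.1 CPM, 47.6 to 57.5), CBL (33.95, 28.1 to 40.2), BRN (27.3, 17.1 to 41.7) and OB (17.6, 15.3 to 20.6). BST did not overlap CBL, and OB did not overlap STM (1.33 CPM), while CBL and BRN overlapped, as did BRN and OB. Cps1 had a low level in CBL, at 0.727 to 2.25 CPM in all 18 libraries with a median of 1.60, with 5 to 43 counts in each. The summed hepatocyte markers stood at 656 to 5152 CPM in the same libraries, nearly all of it Ttr (653 to 5151 CPM). Alb lay between 0 and 5.54 CPM and Fgb between 0 and 0.115 CPM, and Otc was at 0.

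**Figure D3:**
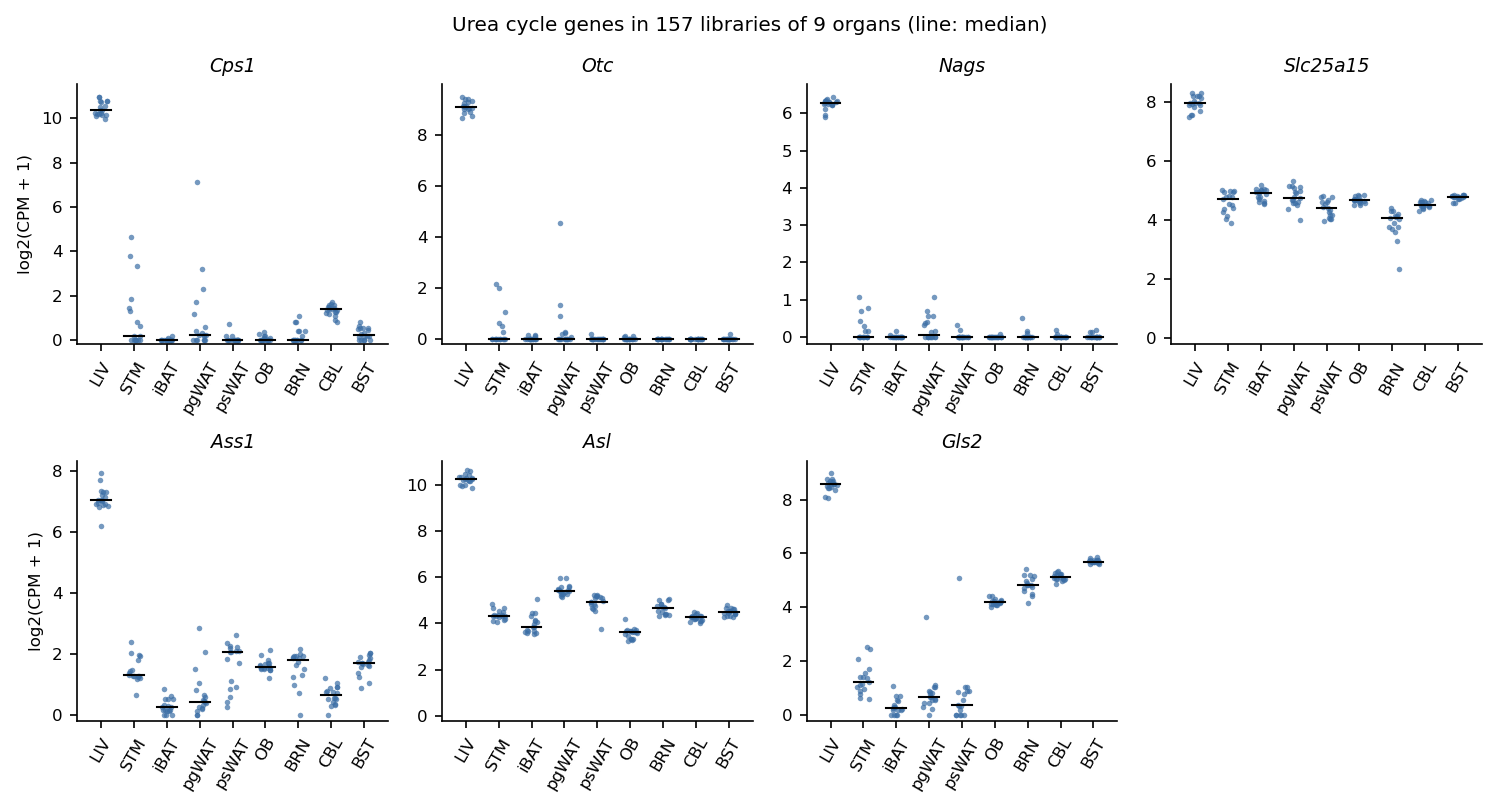
Level of the 7 urea cycle genes as log2(CPM + 1) (vertical axes, on a log scale) in each organ (horizontal axes); each point is 1 library and the line is the median. LIV stands apart from the other organs in each of the 7 panels, and Gls2 has a second group of points in OB, BRN, CBL and BST.

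In STM, 1 of 5 tested members, Slc25a15, was lower at 18 and 22 h than at 0 and 2 h, beside 12.0% of all genes tested that were lower. In the joint test 0 of 5 passed by edgeR, with 1 at an unadjusted p under 0.05 and 0 by DESeq2, beside 6.55% of all genes. Slc25a15 held 27.3, 26.1 and 30.1 CPM at 0 h and 29.9, 22.1 and 26.3 CPM at 2 h, against 16.5, 31.1 and 19.5 CPM at 18 h and 14.0, 18.1 and 15.5 CPM at 22 h. The late libraries lay below every early one except STM_18h replicate 2, which was the highest of the 12 (log2FC -0.59, SE 0.17, n = 6 against 6, edgeR adjusted p = 0.0191). It passed in 14 of 17 fits with 1 library left out, and was lost without STM_2h replicate 1, STM_18h replicate 1 or STM_18h replicate 3 (edgeR adjusted p up to 0.0550). Cps1 in STM rested on few libraries. It stood at 23.7 CPM in STM_2h replicate 1, 12.9 in STM_12h replicate 2 and 9.17 in STM_0h replicate 3, and at no more than 2.54 CPM in the other 14, with a log2FC of -6.03 that did not pass (edgeR adjusted p = 0.0707) and -3.57 without STM_2h replicate 1. Markers of other cells and neighbouring organs moved with these values. The summed level of 8 enterocyte markers was 131.7 to 424 CPM in the early libraries and 40.3 to 104.97 CPM in the late ones, with STM_2h replicate 1 the highest, and that of 7 acinar markers was 116.8 to 544 CPM and 21.7 to 69.6 CPM. The neuron markers went the other way, from 18.8 to 46.9 CPM early to 55.7 to 89.7 CPM late, again with no overlap. The ranges of the gastric epithelium (153539 to 205290 CPM early, 97672 to 178148 CPM late), keratinocyte (1996 to 7895 and 530.02 to 12112 CPM) and cholangiocyte lists (1697 to 2261 and 652 to 1885 CPM) overlapped. The hepatocyte markers were highest in STM_12h replicate 2 (3032 CPM) and STM_0h replicate 3 (2379 CPM). The part of other cells in these differences was not tested. The STM libraries of 0 and 2 h were all in lane L005 and those of 18 and 22 h all in L006, so lane and fasting time cannot be told apart in the late comparison.

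In iBAT, Asl rose during the fast. It held 11.2, 11.1 and 13.4 CPM at 0 h, 11.8, 10.7 and 12.0 CPM at 2 h, 13.5, 11.7 and 11.3 CPM at 8 h, 20.9, 16.3 and 20.9 CPM at 12 h, 14.6, 15.7 and 16.6 CPM at 18 h, and 32.0 and 18.8 CPM in the 2 retained libraries of 22 h. All 5 late libraries were above the 6 early ones. The highest value came from iBAT_22h replicate 2, the shallowest retained iBAT library (3156101 counts, against a median of 9576245). The log2FC was 0.70 (SE 0.16, n = 5 against 6, edgeR adjusted p = 0.0033), and the joint test passed as well (edgeR adjusted p = 0.0062). Asl also passed at 22 h against 0 h (log2FC 0.96, SE 0.23, n = 2 against 3, edgeR adjusted p = 0.0039, beside 19.1% of all genes higher). Without iBAT_22h replicate 2, its highest library, this contrast did not pass (0.52, edgeR adjusted p = 0.116), the late log2FC was 0.48 (edgeR adjusted p = 0.029) and the joint test did not pass (edgeR adjusted p = 0.0517). This was 1 of 2 members tested in iBAT, Asl and Slc25a15, where 16.6% of all genes were higher and 29% passed the joint test. Slc25a15 did not pass, with a late log2FC of 0.15 (SE 0.13, edgeR adjusted p = 0.382). The summed hepatocyte markers stayed at or below 14.9 CPM in iBAT, and the ranges of every marker list checked overlapped between 0 and 2 h and 18 and 22 h. Between 0 and 22 h alone, 7 lists were higher without overlap, among them the macrophage (15.3 to 59.7 and 66.9 to 67.3 CPM), red blood cell (147.7 to 458 and 511 to 661 CPM), keratinocyte (2.11 to 6.79 and 12.9 to 13.6 CPM), acinar (1.54 to 19.5 and 22.5 to 76.2 CPM) and hepatocyte lists (2.095 to 5.43 and 7.13 to 14.9 CPM), and that of the gastric epithelium was lower. Of the keratinocyte list, 1 marker exceeded 3 counts in each of these libraries. The part of these lists was not tested, and these times shared no lane.

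**Figure D4:**
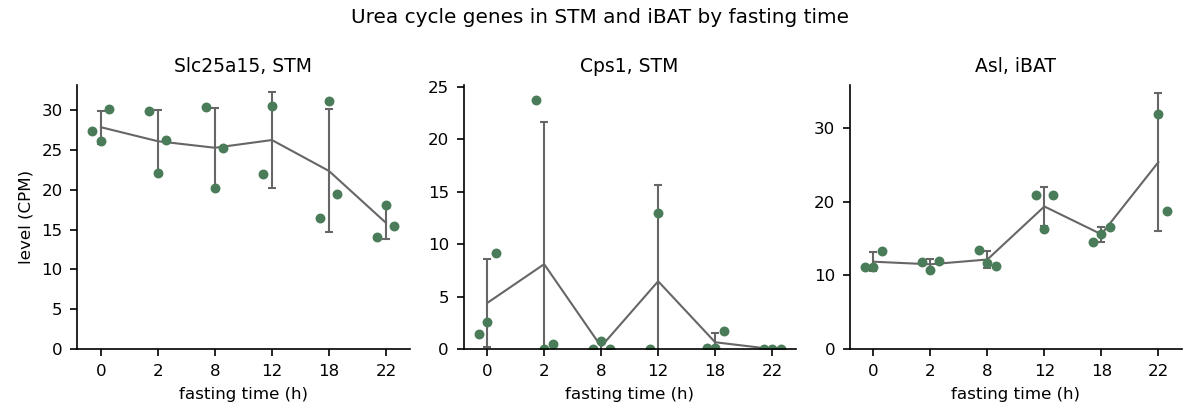
Level in CPM (vertical axes, from 0) of Slc25a15 and Cps1 in STM and of Asl in iBAT at each fasting time in h (horizontal axes, evenly spaced steps); each point is 1 mouse, the line joins the means and bars are ± SD (n = 3, or 2 at 12 h in STM and at 22 h in iBAT). The Slc25a15 points at 18 and 22 h lie below those at 0 and 2 h except 1 at 18 h, Cps1 in STM rests on 3 points, and Asl is highest at 22 h.

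No member passed in pgWAT, psWAT, OB, BRN, CBL or BST, either in the joint test or at 18 and 22 h against 0 and 2 h, by edgeR (0 of 4, 3, 4, 4, 4 and 4 members tested). At an unadjusted p under 0.05 there were 1, 0, 0, 1, 0 and 0 members in the joint test and 3, 0, 0, 0, 0 and 1 in the late comparison. DESeq2 called Cps1 late in pgWAT and Asl in the joint test in BRN. In the other contrasts of the same fits, reported after their values were seen, Asl was the member that passed, in BRN and in OB. In BRN it held 19.5, 21.8 and 20.5 CPM at 0 h and 32.0, 31.8 and 27.8 CPM at 22 h, which do not overlap (log2FC 0.77, SE 0.22, edgeR adjusted p = 0.0416, beside 5.06% of all genes higher). Of the marker lists, those of acinar (8.79 to 19.03 CPM at 0 h, 26.1 to 102.6 CPM at 22 h), red blood (51.2 to 118.5 and 147.1 to 218.8 CPM), and keratinocyte cells (18.4 to 24.7 and 29.4 to 35.2 CPM) were also higher at 22 h without overlap, and that of macrophages lower (104.1 to 122.7 and 76.5 to 102.8 CPM), and their part was not tested. Of the keratinocyte list, Krt5 was at 0 and Krt14 at no more than 1.08 CPM in these libraries. The hepatocyte sum also separated (482 to 872 and 943 to 1124 CPM), nearly all of it Ttr, with Alb at 0 in each of these libraries except BRN_22h replicate 3 (5.14 CPM). No lane held libraries of both times, so lane and fasting time cannot be told apart here. That call held in 6 of 16 fits with 1 library left out (edgeR adjusted p up to 0.243, without BRN_22h replicate 2), and not with the excluded libraries put back (edgeR adjusted p = 0.945) or with no filter on low counts (edgeR adjusted p = 0.111). In OB Asl was higher at 18 and 22 h than at 8 and 12 h (log2FC 0.35, SE 0.12, edgeR adjusted p = 0.0332, beside 15.1% of all genes higher), with overlapping ranges of 10.6 to 17.0 and 8.90 to 11.97 CPM, while the keratinocyte markers were at 20.4 to 32.7 and 16.0 to 19.4 CPM with no overlap. Of that list, Krt5 and Krt14 were at no more than 0.443 CPM in these libraries. The late OB libraries were all in lane L004, with 4 of the 6 earlier ones. Without OB_18h replicate 1, its highest library, the log2FC was 0.21 (edgeR adjusted p = 0.194), and the call held in 11 of 18 such fits. Of all genes, 0.00609% of pgWAT, 0.00% of psWAT, 4.87% of OB, 7.43% of BRN, 2.48% of CBL and 0.0775% of BST passed late, and 0.00%, 0.00%, 15.4%, 0.00597%, 2.99% and 0.107% passed the joint test. In the 2 white fat depots single libraries carried the high values. In pgWAT_18h replicate 2, Cps1 was at 136.9 CPM and Otc at 22.3 CPM, against no more than 8.19 and 1.55 CPM in the other 17 libraries, and the summed hepatocyte markers were at 4756 CPM against a median of 35.6 CPM, with Alb at 3392 CPM. Gls2 reached 32.9 CPM in psWAT_12h replicate 3, where the neuron markers were at 3880 CPM against a median of 24.4 CPM, and no more than 1.06 CPM in the others. The part of other tissue in these values was not tested.

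**Figure D5:**
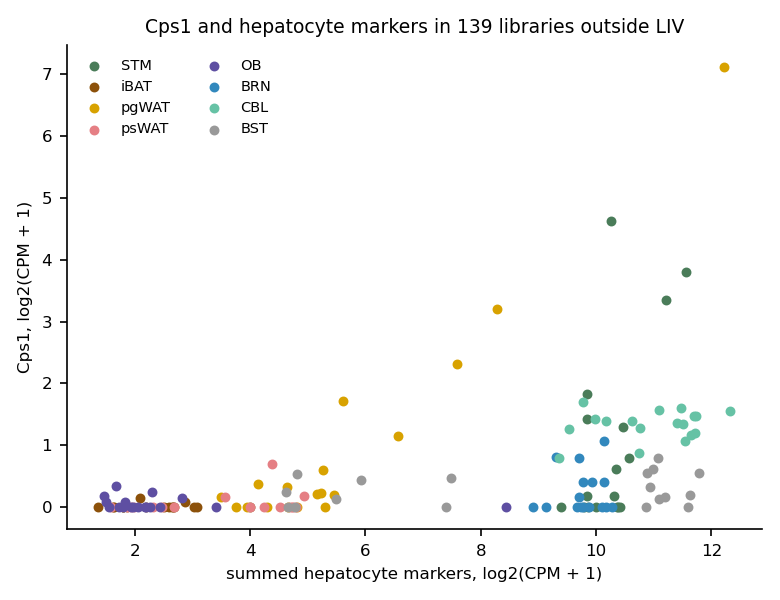
Cps1 (vertical axis) against the summed level of 8 hepatocyte markers (horizontal axis), both as log2(CPM + 1), in the retained libraries outside LIV; each point is 1 library, coloured by organ. The library pgWAT_18h replicate 2 stands highest on the Cps1 axis, 3 STM libraries follow, and the CBL points form a band of low Cps1, whose place on the horizontal axis rests on Ttr.

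The late change was then compared between LIV and each organ directly, by the difference of the log2FC at 18 and 22 h against 0 and 2 h. For members past the filter in both organs, 4 such differences passed. The log2FC of Cps1 was 5.80 higher in LIV than in STM (SE 1.56, edgeR adjusted p = 0.0335, where 1.47% of all genes differed). Cps1 passed the STM filter (1.14 CPM) mostly through 0 and 2 h libraries in which it was high. At 18 and 22 h its STM median was 0.0666 CPM and its highest value 1.69 CPM, so this test is not free of the filter. The organs came from the same mice. The block by animal took libraries of the same fasting time and replicate number as 1 mouse, which the sample titles do not state. With this block the difference of Cps1 did not pass (5.34, edgeR adjusted p = 0.0808), nor with the 5 excluded libraries put back (5.78, edgeR adjusted p = 0.0807). The log2FC of Asl was lower in LIV than in iBAT by 0.54 (difference -0.54, SE 0.19, edgeR adjusted p = 0.0355, where 14.3% differed). It passed with the block by animal as well (edgeR adjusted p = 0.0389) and not with the excluded libraries put back (edgeR adjusted p = 0.183). Against pgWAT the differences were -5.69 for Cps1 (SE 1.08, edgeR adjusted p = 0.000293) and -2.06 for Ass1 (SE 0.56, edgeR adjusted p = 0.0159), where 5.41% differed. No 0 or 2 h library of pgWAT reached the filter level of 1.22 CPM for either gene (at most 1.21 CPM for Cps1 and 1.07 for Ass1). Both entered through later libraries in which they were high, so these 2 tests are not free of the filter. In pgWAT as well no lane held libraries of both 0 and 2 h and 18 and 22 h. The pgWAT values rested on libraries with other tissues' markers, pgWAT_18h replicate 2 among them. Without the 4 pgWAT libraries in which the marker list of another tissue stood over 5 times its median and over 100 CPM, a rule made after seeing the data, they were -0.99 for Cps1 (edgeR adjusted p = 1.00) and 1.90 for Ass1 (edgeR adjusted p = 0.674). In the same fit, which also left out STM_0h replicate 3, 5 libraries of psWAT and 1 of OB, the difference of Cps1 from STM was 5.19 (edgeR adjusted p = 0.0200) and that of Asl from iBAT -0.58 (edgeR adjusted p = 0.0136). Against psWAT, OB, BRN, CBL and BST no member passed by edgeR (0 of 3, 4, 4, 4 and 4, with 2, 0, 0, 0 and 0 at an unadjusted p under 0.05), beside 0.262%, 0.185%, 7.13%, 0.534% and 0.104% of all genes.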

How the data were processed

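RNA of 9 organs from 18 mice was sequenced as stranded, paired 150-base mRNA libraries (162 in all). Per the study's methods, reads were aligned to GRCm38.p5 with TopHat2 2.1.1, uniquely mapped reads were kept, and HTSeq 0.9.1 counted them over exons of Gencode M16. The authors deposited raw counts per gene. The 5 libraries that the study excluded were left out here, leaving 157 (18 of LIV and 139 of the other organs). Gene positions and lengths came from Gencode M21 (GRCm38).

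CPM were computed from the total of each library. Each organ was fitted separately in edgeR 4.0.16 (R 4.3.3; TMM factors, robust quasi-likelihood, 1 mean per fasting time), with genes kept at 10 counts in the organ's median library in at least 3 libraries, and adjusted p-values (Benjamini-Hochberg) over all genes kept. Organs were compared in 1 fit of all 157 libraries. A gene passed at an adjusted p under 0.05, and the DEG rule added an absolute log2FC over 1. Replicates are separate mice, and the 9 organs come from the same mice. On counts simulated for LIV with 1 dispersion for all genes, the comparison of 18 and 22 h with 0 and 2 h called 183 of 200 genes changed 2-fold and 3 unchanged genes. The joint test called 183 and 11. The simulation did not cover changes as small as those of the members in LIV. DESeq2 1.42.0, other filters, left-out libraries and covariates were alternatives.

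The genes named were the 7 members described, up to 20 genes of the related lists with the smallest adjusted p in the joint test in LIV, every list member that a count of 5 or fewer refers to (the last chosen after values were seen), and the genes most correlated with each member. The members and lists were chosen with earlier results of these data known. Other members and list genes are not reported here.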

Additional observations from a re-analysis of the deposited data

Results flagged for a closer look

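The late change, 18 and 22 h against 0 and 2 h, was compared between LIV and each other organ by a test of the difference itself, and 4 differences passed. For Cps1 in LIV minus STM the difference in log2FC was 5.80. The Cps1 counts of STM rested on 3 of 17 libraries, and Cps1 passed the STM filter mostly through 0 and 2 h libraries. With a block by animal that difference was 5.34 and did not pass (edgeR adjusted p = 0.0808). For Asl in LIV minus iBAT it was -0.54, with Asl higher late in iBAT and not past the test in LIV. For LIV minus pgWAT it was -5.69 for Cps1 and -2.06 for Ass1, and both genes passed the pgWAT filter only through libraries fasted longer than 2 h. Without the 4 pgWAT libraries marked by other tissues, these were -0.99 and 1.90 and neither passed (edgeR adjusted p = 1.00 and 0.674), and the sign of Ass1 turned.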

How the results depend on the processing

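LIV counts of members past the joint test (main value 1) were 3 with DESeq2, 2 with Ass1 and Gm5424 summed, 4 with no filter on low counts, and 0 with lane as a covariate. For 18 and 22 h against 0 and 2 h (1) they were 3 with DESeq2, 3 with no filter and 0 with lane. The 3 with no filter were Cps1, Otc and Slc25a15, without Nags. With a replicate block the 1 member past that comparison was Slc25a15 and not Nags. For 8 and 12 h (3) the count was 0 with lane, and for 18 and 22 h against 8 and 12 h (0) it was 1 with no filter. DESeq2 gave 1 member in the joint test of BRN (0), 1 late in pgWAT (0) and 2 late in STM (1). Differences from LIV that passed numbered 0 in STM (1) and 0 in iBAT (1) with the 5 excluded libraries put back, and 0 in pgWAT (2) without the marked libraries. The late log2FC of Ass1 turned to -0.33 with the summed row and that of Gls2 to -0.14 with lane, and Asl at 8 and 12 h turned to -0.0295 with lane. The cause was not tested.

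Leaving out 1 library at a time, LIV counts ran from 0 to 2 in the joint test, 0 to 3 late, 1 to 4 at 8 and 12 h, 0 to 3 at 12 h, and 0 to 1 at 18 h and at 22 h. They ran from 0 to 1 in the joint test and 0 to 2 late in STM, and from 0 to 1 in the joint test in iBAT. Each single call of Asl at 22 h in iBAT and BRN and at 18 and 22 h against 8 and 12 h in OB was lost in some of these fits, and the other counts over the planned tests kept their value.

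By the rule used, replicate numbers were not taken to pair the libraries, since same-numbered pairs in every organ included correlations below 0. With 35 to 45 such pairs per organ a single pair below 0 was enough, so the rule does not decide on pairing. The mean over same-numbered pairs was -0.0269 in LIV (0.0130 over other-numbered ones). It was highest in iBAT (0.155 against -0.0777, with 10 of 17 libraries closest to their own number), where the block kept the calls of Asl. Libraries closest to their own number were 10 of 18 in OB and in BST, 9 of 16 in BRN and 9 of 18 in CBL. They were 2 of 18 in LIV, 5 of 17 in STM, 6 of 18 in pgWAT and 2 of 17 in psWAT. With a replicate block the joint test in LIV gave 0 members and 12 h against 0 h gave 1, and a block by animal gave 0 for STM, where the difference of Cps1 was 5.34 (edgeR adjusted p = 0.0808). Depth limits members at or under 3 counts, which held for Nags in 94.2% and Otc in 93.5% of the libraries outside LIV.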
